A study of Mus musculus with 24 samples.

Results

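The comparison described here is that between female (F) and male (M) livers of young wild-type mice given vehicle (VEH), restricted to autosomal genes. It comprised 6 of the 24 liver libraries of the series, 3 from females (numbered 4, 5 and 6) and 3 from males (numbered 1, 2 and 3). Genes were taken from the wild-type count table, whose 12643 row labels lack 9 lower-case letters of the alphabet, so that a label was used only where exactly 1 mouse gene symbol gives it. This left 10097 autosomal genes, carrying 54.7% of all counts, while 2104 labels with 40.7% of counts could stand for several symbols and were not read. The wild-type mice carried no transgene and received VEH, which was water at pH 11, or ganciclovir (GCV, 150 mg/kg per the labels, while the study's methods give another dose) by intraperitoneal injection on 5 days of each month from 6 months of age, and livers were taken 3 months later. Other mice serve for comparison, namely the GCV-treated wild-type mice (3 females and 3 males) and the VEH-treated p16-3MR mice (3 females and 3 males), whose treatment began at 16 to 18 months of age. p16-3MR mice carry a transgene in which p16-expressing cells make a viral thymidine kinase that GCV acts on, and the labels put them in batch 1 and the wild-type mice in batch 2.

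Adult rodent liver transcripts differ widely between the sexes. The pituitary releases growth hormone in widely spaced pulses in males and more continuously in females, and hepatocytes read this pattern through the growth hormone receptor, JAK2 and the transcription factor STAT5b. The genes best known to follow it encode cytochromes P450, sulfotransferases, major urinary proteins and enzymes of steroid and lipid metabolism.

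Total counts were 3769372 to 5235756 in the females and 4499887 to 5667904 in the males, and values are given as CPM, the counts relative to library sizes scaled by edgeR's trimmed mean of M-values (TMM), so that 3 counts correspond to 0.516 to 0.798 CPM. This floor, and the counting intervals below, cover counting error only. Rows on the Y chromosome held 0 to 8 counts in the females and 196 to 333 in the males, matching their labels. Of the hepatocyte markers listed, 5 could be read. Their sum was higher in every male, at 14648 to 14901 CPM in the females and 16086 to 16817 CPM in the males. Sinusoidal endothelial markers (8 read) summed to 171 to 207 CPM in females and 142 to 155 CPM in males, and stellate cell markers (8 read) to 304 to 383 and 273 to 299 CPM, so that both sums were slightly higher in every female. Kupffer cell markers (10 read) overlapped, with 427 to 586 and 399 to 464 CPM. Lymphocyte and neutrophil markers (10 read, none reaching 5 CPM) were low but also higher in every female, with sums of 9.63 to 13.3 and 5.80 to 7.72 CPM and a median log2 difference of 1.34. No marker on these 5 lists passed the test (1 Kupffer cell marker did without male 1), where 3.82% of all rows did. This count is near the background, and the part of cell composition in the results was not tested. In whole liver, fewer cells of a type and less RNA per cell cannot be told apart.

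Male 1 stood apart from the other males. Among the genes reaching 50 CPM in a male, the acute-phase gene Saa2 was at 4292 CPM in male 1 against 39.3 and 43.7 CPM in males 2 and 3, Lcn2 at 220 CPM against 5.46 and 4.84 CPM, and Saa3 at 190 CPM against at most 13.6 CPM. In the opposite direction, Cyp4a14, a fatty acid hydroxylase and PPARα target, was at 6.12 CPM in male 1 against 200 and 219 CPM, and Cyp4a10 at 27.9 CPM against 217 and 206 CPM. Saa2 and Saa3 were called male-higher with it, and without it differed by -0.98 and -0.90 on the log2 scale and were not called. These genes were named after their values were seen. The overall count of called genes, and the list counts that this liver moved most, are therefore given with and without it.

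Of the 10097 autosomal genes, 363 differed between the sexes at an adjusted p-value under 0.05 (edgeR quasi-likelihood test, Benjamini-Hochberg adjustment over the table), 162 of them higher in females and 201 higher in males. Over all rows of the table the share called was 3.82%, with 1.82% higher in females and 2.00% higher in males. The difference was at least 1 on the log2 scale in 103 of the female-higher and 100 of the male-higher genes, and at least 4 in 26 and 22 genes. The values of the 3 females and 3 males did not overlap in 348 of the 363 called genes, and in 1769 of all 10097. Without male 1, 542 autosomal genes were called (244 and 298), among them 324 of the 363. Leaving out male 3 gave 239, and the female-higher count fell from 162 to 91 without male 2 and to 96 without male 3. When libraries were scaled by their totals instead of TMM, the median log2 difference over all rows was 0.36 instead of 0.02, and 1155 genes were called higher in females and 114 higher in males, so small differences are stated relative to the TMM scaling. Major urinary protein transcripts alone made up 4.29 to 5.74% of counts in the females and 18.3 to 27.1% in the males.

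The promoters of a few leading genes are shown because they are near the head of the female and male lists. The Cyp3a pair is shown also because the genes are near-identical neighbours. Each is the 250 bases before the RefSeq transcription start on GRCm38.p6, printed 5′ to 3′ on the gene's strand. Cyp3a44 (chr5:145805875-145806124, minus strand) and Cyp3a41a (chr5:145720137-145720386, minus strand) are equal at 236 of 250 positions, and capitals mark the 14 positions at which they differ. A RefSeq promoter was found for 9 of the 12 leading female-higher and 4 of the 12 leading male-higher genes. Cyp4a12a, Mup20 and Sult2a1 were among those without one. Of the leading genes with a promoter, Sult3a1 (chr10:33857472-33857721, plus strand) is the one whose window holds the letters TTCNNNGAA, the core of a STAT5 site, here in capitals. Cyp2b9 (chr7:26173159-26173408, plus strand) and Mup7 (chr4:60070476-60070725, minus strand) are the female- and male-higher leaders of the cytochrome P450 2b and urinary protein clusters, and hold no such letters in this window.
Cyp3a44: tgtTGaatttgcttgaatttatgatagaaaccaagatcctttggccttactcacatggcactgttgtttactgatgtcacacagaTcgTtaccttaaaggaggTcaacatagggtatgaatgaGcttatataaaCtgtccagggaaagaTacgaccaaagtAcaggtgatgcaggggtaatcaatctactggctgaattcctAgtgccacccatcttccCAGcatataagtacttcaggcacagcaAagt
Cyp3a41a: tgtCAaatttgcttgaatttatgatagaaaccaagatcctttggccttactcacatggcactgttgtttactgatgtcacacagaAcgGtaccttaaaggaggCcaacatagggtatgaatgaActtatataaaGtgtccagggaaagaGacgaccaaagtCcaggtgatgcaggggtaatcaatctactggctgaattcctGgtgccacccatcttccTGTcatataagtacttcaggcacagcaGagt
Sult3a1: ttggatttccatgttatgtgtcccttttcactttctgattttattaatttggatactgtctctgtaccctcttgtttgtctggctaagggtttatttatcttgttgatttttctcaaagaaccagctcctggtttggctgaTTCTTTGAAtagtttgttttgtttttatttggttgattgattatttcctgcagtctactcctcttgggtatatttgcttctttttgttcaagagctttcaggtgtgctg
Cyp2b9: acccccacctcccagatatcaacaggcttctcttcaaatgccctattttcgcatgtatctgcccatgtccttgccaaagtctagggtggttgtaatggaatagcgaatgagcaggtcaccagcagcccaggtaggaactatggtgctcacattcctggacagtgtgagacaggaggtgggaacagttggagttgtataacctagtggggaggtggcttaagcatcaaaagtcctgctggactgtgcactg
Mup7: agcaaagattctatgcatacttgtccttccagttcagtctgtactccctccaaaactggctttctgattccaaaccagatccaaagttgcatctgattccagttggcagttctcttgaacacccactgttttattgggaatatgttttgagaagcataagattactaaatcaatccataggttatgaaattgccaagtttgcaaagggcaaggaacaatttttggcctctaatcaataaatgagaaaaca

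TTCNNNGAA reads the same on both strands. In windows from 250 bases before to 50 bases after the start, it was present in 10 of 167 promoters of female-higher genes (5.99%), in 14 of 184 promoters of male-higher genes (7.61%) and in 632 of 9060 promoters of all autosomal genes read (6.98%). Over all 32851 promoters of the table the share was 8.30%. A RefSeq promoter was found for 123 of the 162 and 147 of the 201 called genes. The shares in called genes were thus close to that over all genes, which concerns these letters in this window alone.

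Cytochromes P450 formed the largest group. Of 79 measured members, 20 were higher in females, 8 higher in males and 51 were not called, or 35.4% called against 3.82% of the table, and the median log2 difference of the list (0.05) was near that of all genes (0.03). Cyp3a44 was at 88.0, 146 and 86.8 CPM in the females against 0.266, 0.219 and 0 CPM in the males (log2 fold change 9.24 ± 0.50 SE, edgeR adjusted p = 1.6e-11). With 2 counts in all males together, its ratio of 714 has a 95% counting interval of 197 to 5901. Cyp3a41a, the neighbour whose promoter is shown above, was at 835, 1299 and 830 CPM against 4.52, 1.97 and 0.967 CPM, a 397-fold difference.

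Members of the 2a, 2b and 2c subfamilies were also female-higher. Cyp2b9 was at 136, 186 and 185 CPM in females and at most 0.437 CPM in males, 565-fold (log2 9.02 ± 0.55 SE, edgeR adjusted p = 1.07e-10), and Cyp2b13 at 67.5 to 69.5 CPM against at most 0.798 CPM, 207-fold. Cyp2a4, a steroid 15α-hydroxylase, was at 375, 437 and 617 CPM against 2.40, 1.31 and 0.387 CPM (349-fold). Cyp2c69 averaged 388 ± 52.7 CPM in females and 2.53 ± 1.08 CPM in males (SD, n = 3; 153-fold), Cyp2c40 511 ± 74.4 against 11.9 ± 4.34 CPM (42.9-fold), and Cyp2c37 and Cyp2c68 differed by 1.27 and 1.31 on the log2 scale, while Cyp2c67 was 2.05-fold higher in males. Cyp17a1, the steroid 17α-hydroxylase and lyase, was 19.1-fold higher in females (119 ± 30.8 against 6.24 ± 1.71 CPM). The call of Cyp3a41b rests on few livers, as it was at 18.4 and 42.7 CPM in 2 females but at 0 in female 6 and in every male, and it was lost under DESeq2 and limma-voom.

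Male-higher members of the P450 group were led by Cyp4a12a, an arachidonic acid hydroxylase, at 182, 250 and 231 CPM in the males and 0, 0 and 0.470 CPM in the females (log2 fold change -10.38 ± 0.38 SE, edgeR adjusted p = 1.39e-14). Its ratio of 1631 rests on 2 counts in females and has a counting interval of 451 to 13475. Cyp4a12b, its close paralog, was at 87.6 to 102 CPM in males against at most 0.442 CPM in females. Cyp2d9, a testosterone 16α-hydroxylase, was at 1218, 1285 and 1313 CPM in males and 27.7, 21.9 and 16.9 CPM in females. This was a 57.4-fold difference, with little spread among the males. Cyp7b1, the oxysterol 7α-hydroxylase of the alternative bile acid pathway, was 12.2-fold higher in males (398 ± 75.5 against 32.7 ± 8.58 CPM). Members of these subfamilies are near-identical, and Salmon may divide their reads unevenly, so the values of single paralogs are uncertain.

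**Figure D1:**
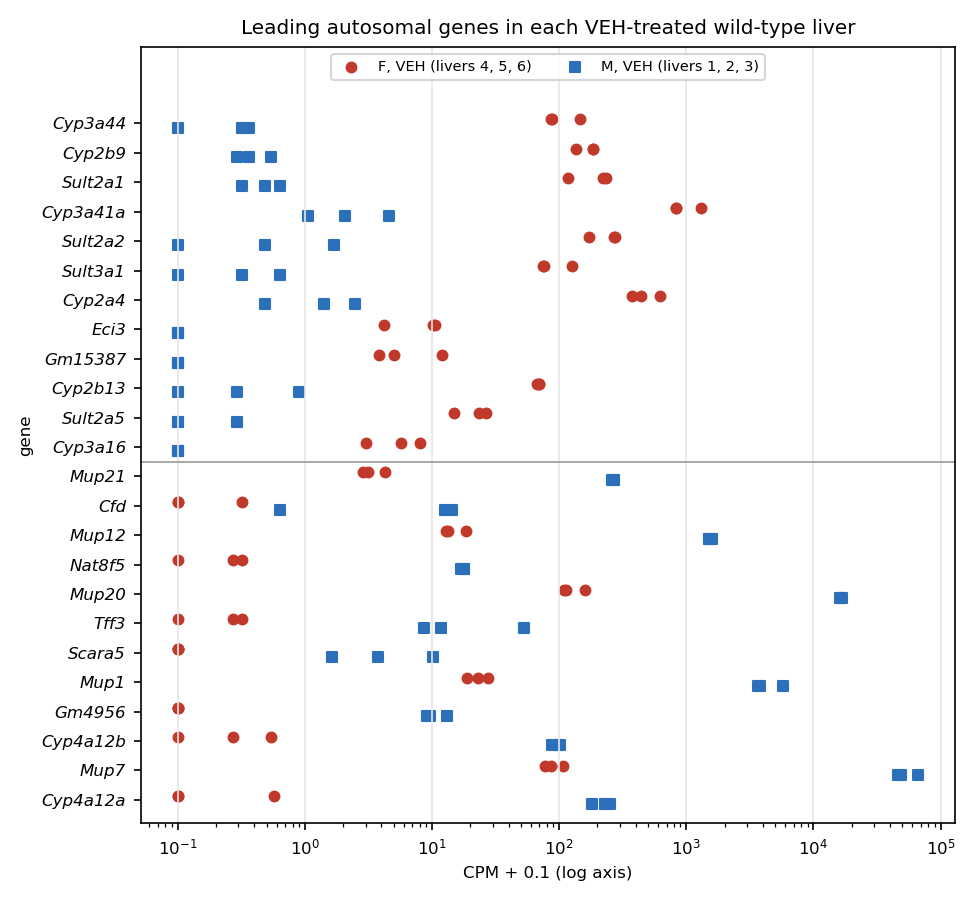
Level of the 12 female-higher and 12 male-higher autosomal genes with the largest log2 difference in each of the 6 VEH-treated wild-type livers, as CPM + 0.1 on a log axis, with circles for females and squares for males. Groups do not overlap, by the way these genes were chosen, and Cyp4a12a spans from 0 CPM in females to 250 CPM in males.

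Sulfotransferases, which conjugate steroids, bile acids and drugs with sulfate, differed mostly towards females. Of 14 measured, 8 were higher in females, 1 higher in males and 5 not called (median log2 difference 2.41 against 0.03 over all genes). Sult2a1, the hydroxysteroid sulfotransferase, averaged 190 ± 64.3 CPM in females (SD, n = 3) and was at 0.532, 0.219 and 0.387 CPM in males, 502-fold (log2 8.90 ± 0.59 SE, edgeR adjusted p = 4.62e-10). Sult3a1 was at 126, 74.3 and 75.5 CPM against at most 0.532 CPM. Its ratio of 428 rests on 3 counts in males and has a counting interval of 146 to 2080. Sult2a8 ran the other way, at 485 ± 33.4 CPM in males and 253 ± 45.5 CPM in females (1.92-fold), although it lies in the Sult2a cluster of chromosome 7.

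Other conjugating families were split. Of 18 glucuronosyltransferase-list members, 2 were higher in females and 6 in males, with Ugt2b1 at 372 ± 78.4 CPM in males and 109 ± 8.88 CPM in females (3.41-fold). The female-higher call of Ugt2b37 (log2 1.90) did not hold under limma-voom or the expression filter, nor with 5 of the 6 livers left out in turn. Of 11 glutathione transferases, Gstp1 and Gstp2 were higher in males by 9.40-fold and 22.9-fold, Gstp1 at 4794, 3075 and 3197 CPM against 393, 396 and 387 CPM. Gstt3 was 2.39-fold higher in females, while the smaller female-higher differences of Gstt1 (log2 0.44) and Gstt2 (log2 0.50) were not called without female 5, female 6, male 1 or male 2, nor in a fit of the 6 VEH-treated livers alone, and Gstt1 also not with DESeq2 size factors. Gstp3 was female-higher (log2 1.02), unlike its neighbours Gstp1 and Gstp2 on chromosome 19, but was not called without female 5, female 6, male 2 or male 3. Among 6 carboxylesterases, Ces3a was 2.50-fold higher in males and Ces1c 1.63-fold higher in females.

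**Figure D2:**
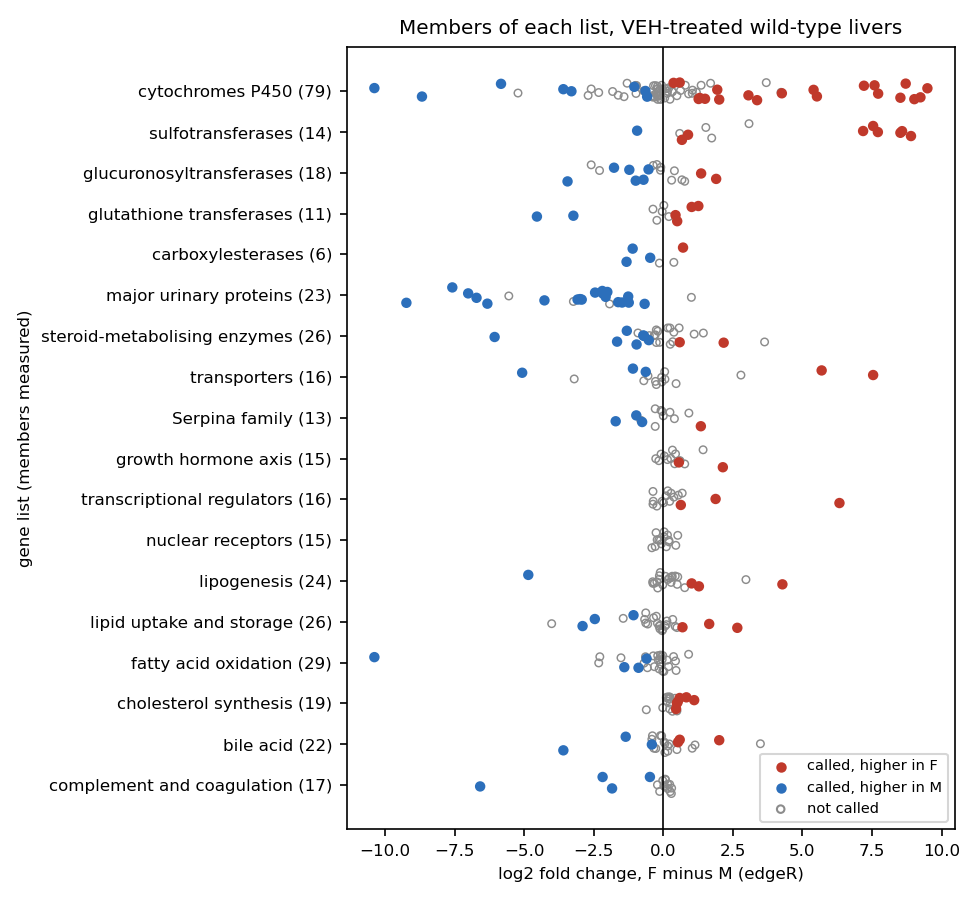
Log2 fold change (females minus males, edgeR) of every measured autosomal member of 18 gene lists, with called genes filled in red (female-higher) or blue (male-higher) and others open. Sulfotransferases lie mostly to the right and urinary proteins to the left.

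The major urinary proteins (MUPs), lipocalins that carry pheromones into urine, were male-higher in 19 of 23 list members, and none was called higher in females (median log2 difference -2.45). Their levels in males differed widely. Mup7 was at 66776, 46562 and 48556 CPM in males and 76.9, 85.8 and 107 CPM in females, 601-fold (log2 -9.23 ± 0.22 SE, edgeR adjusted p = 6.35e-18), and Mup20, the male pheromone darcin, at 16234, 16885 and 16503 CPM against 114, 161 and 110 CPM (129-fold). Mup1, Mup12 and Mup21 were 193-, 104- and 79.8-fold higher.

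Other MUPs were abundant in both sexes. Mup10 differed by 1.59-fold only (1076 ± 223 against 675 ± 72.7 CPM), and Mup3 averaged 2.01 lower on the log2 scale in females. Male 1 exceeded males 2 and 3 in several of these genes, with Mup15 at 22958 CPM against 5024 and 4768 CPM and Mup16 at 2613 CPM against 603 and 640 CPM, whereas Mup20, Mup12 and Mup21 were level in the 3 males. The list kept 19 called members without male 1. The not-called members were Mup4, Mup5, Mup6 and Obp2a. MUP genes lie side by side on chromosome 4 and share long stretches of sequence, so the division of reads among them is uncertain, while the family sum, 198503 to 324212 CPM in males and 37629 to 51711 CPM in females, is less so.

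**Figure D3:**
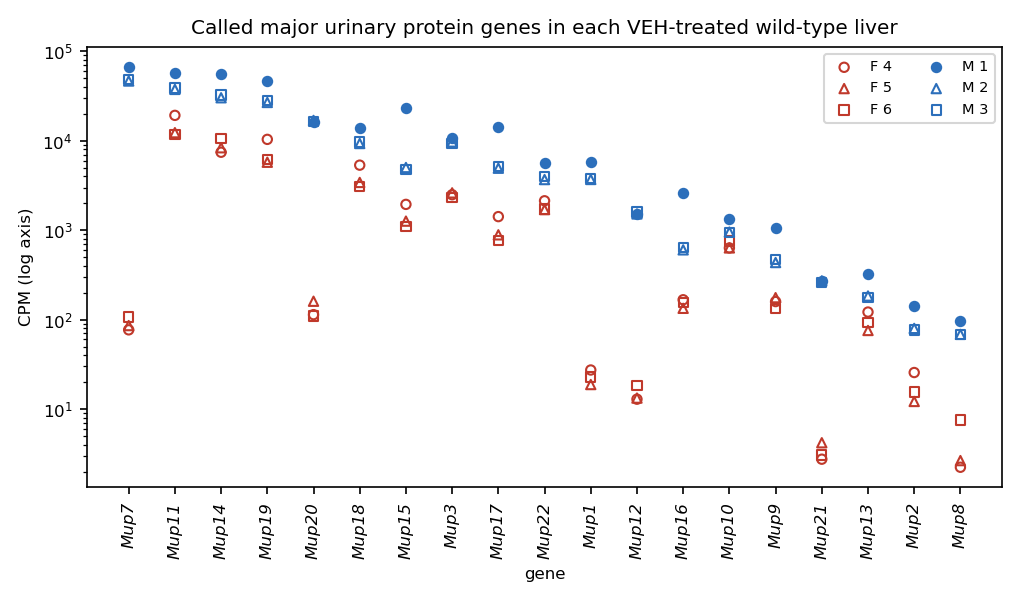
CPM (log axis) of the 19 called urinary protein genes in each of the 6 livers, in order of their mean level in males, with red symbols for females and blue for males and male 1 filled. Mup7, Mup20, Mup1, Mup12 and Mup21 show the widest gap between the sexes, and male 1 lies above the other males at Mup15, Mup16 and Mup17.

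Steroid-metabolising enzymes comprised 2 female-higher and 7 male-higher genes of 26. Hsd3b5, a 3-ketosteroid reductase, was at 191, 199 and 193 CPM in males and 5.33, 1.77 and 0.940 CPM in females, 72.6-fold. Srd5a1, the steroid 5α-reductase, was 2.48-fold higher in males although it was written on the list of known female-biased genes. Hsd17b6 was 4.54-fold higher in females (121 ± 54.0 against 26.8 ± 7.59 CPM, with female 5 at 60.4 CPM). Among 16 transporters, Slc22a26 (102 ± 12.6 against 0.508 ± 0.278 CPM) and Slc22a27 were female-higher, and their neighbour Slc22a28 male-higher (37.4-fold).

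The regulators that could be read were fewer. Of 15 members of the growth hormone axis list, Prlr, the prolactin receptor, was 4.42-fold higher in females, at a mean of 349 ± 49.0 CPM against 62.3, 96.8 and 78.0 CPM. Stat5b was at 32.4 ± 5.30 CPM in females and 24.3 ± 2.95 CPM in males (log2 0.41, edgeR adjusted p = 0.21), a difference that was not called. Cish, a feedback inhibitor induced by STAT5, varied within both sexes, at 48.5, 11.5 and 45.6 CPM in females and 47.1, 8.31 and 8.71 CPM in males (edgeR adjusted p = 0.554). Without male 1 the Cish difference was 2.05 on the log2 scale and called. Ghr, Igf1, Socs2, Bcl6, Tox and Esr1 had labels shared with other genes and were not read.

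Of 16 transcriptional regulators listed, 3 were called, all female-higher. Cux2, a homeobox repressor of male-biased genes in female liver, was at 7.22, 39.2 and 32.9 CPM in females and at most 0.532 CPM in males, 84.0-fold (log2 6.33 ± 0.74 SE, edgeR adjusted p = 4.96e-06), with female 4 well below the other females. Trim24 was 3.66-fold higher (58.0 ± 12.8 against 15.9 ± 2.99 CPM). Foxa2 differed by 0.63 on the log2 scale, and its call was lost in a fit of the 6 VEH-treated livers alone, under the expression filter, and without female 4, female 6, male 2 or male 3. Log2 differences of 15 nuclear receptors ran from -0.41 to 0.52 (edgeR), and none was called, where 3.82% of all rows were, so that this count is near the background.

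Lipid genes were called in both directions. Of 24 lipogenic genes, Elovl3, a fatty acid elongase, was male-higher (58.8, 136 and 143 against 4.64, 1.77 and 5.17 CPM, 29.1-fold), while Elovl6, Lpin1 and Pnpla3 were female-higher, Elovl6 by 2.02-fold and Lpin1 by 2.41-fold. Pnpla3 was low, at 0.860, 2.21 and 2.82 CPM in females and 0, 0 and 0.193 CPM in males. In the GCV-treated wild-type mice, Elovl3 was called (log2 -4.66), but Elovl6, Lpin1 and Pnpla3 were not (log2 0.25, 0.07 and 2.92). The call of Lpin1 was lost without female 4, male 2 or male 3, and that of Pnpla3 without male 1. Over the whole list, 3 genes were female-higher and 1 male-higher (16.7% called against 3.82% of all rows), and 6 and 1 without male 1. Of 26 uptake and storage genes, 3 were higher in each sex (23.1% called), or 3 in females and 5 in males without male 1. Abcd2, a peroxisomal transporter of very long-chain acyl-CoA, was 6.57-fold higher in females (86.7, 125 and 79.5 against 1.33, 18.4 and 24.6 CPM), and Fabp5, a fatty acid binding protein, 3.14-fold (487, 767 and 704 against 337, 134 and 153 CPM). The Abcd2 call was lost under DESeq2. Fitm1, which acts in lipid droplet formation, was 5.51-fold higher in males, with male 1 at 27.9 CPM and males 2 and 3 at 93.1 and 99.8 CPM.

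Fatty acid oxidation genes were male-higher in 4 of 29 (13.8%, against 3.82% of all rows called) and female-higher in none. Of the 4, 3 were also called in the GCV-treated wild-type mice. Without male 1 the count became 9 of 29, while calls over all autosomal genes rose from 363 to 542. The called members included Cyp4a12a, Nudt7 (2.65-fold) and Pex11a. Pex11a (log2 -0.89) was not called without female 4, female 5, male 2 or male 3. Cholesterol synthesis genes were female-higher in 6 of 19 (31.6%), and in 10 of 19 without male 1, where 1 was male-higher. In the GCV-treated wild-type mice none of the 6 was called, and 3 of them had the same direction. Mvd was 2.14-fold higher in females, at 48.5, 54.9 and 59.5 CPM against 35.4, 19.9 and 20.7 CPM, with male 1 the highest male. The counts in these lists therefore changed with 1 liver, as the count over all genes did.

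In bile acid handling, 3 of 22 genes were higher in each sex (27.3% called against 3.82% of all rows). Besides Cyp7b1, these included the bile acid uptake transporters Slc10a1, 1.44-fold higher in females, and Slc10a2, 2.59-fold higher in males. The male-higher call of Baat (log2 -0.41) was lost with 5 livers left out in turn, and the female-higher call of Akr1d1 (log2 0.59) with 4. Of 17 complement and coagulation genes read, C8a and C9, subunits of the membrane attack complex, were 4.53- and 3.57-fold higher in males. Cfd, an adipocyte gene also on the list of other tissues, was at 14.2 and 12.6 CPM in males 2 and 3, at 0.532 CPM in male 1 and at no more than 0.221 CPM in females. Of the Serpina family, Serpina6, the corticosteroid-binding globulin, was 2.55-fold higher in females and Serpina12 3.28-fold higher in males. Glucose-6-phosphatase (G6pc), of the feeding list, was 2.18-fold higher in males, and Bhlhe41 was the called clock gene of 8 (log2 -1.67), a call lost with each liver left out in turn.

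Other genes also differed. Eci3, an enoyl-CoA isomerase, was at 4.13, 10.4 and 10.1 CPM in females with no count in any male, at least 35.2-fold higher when 3 counts over the 3 males are taken as the floor. Nat8f5, Tff3, Scara5 and Gm4956 were male-higher with at most 2 counts in all females. Nat8f5 was even in males (17.8, 16.8 and 17.8 CPM), whereas Tff3 was at 52.4 CPM in male 1 and 8.52 and 11.6 CPM in the others. Susd4 was 12.6-fold higher in males, and Ccnd1, the G1 cyclin D1, 5.94-fold higher in females (244 ± 40.2 against 41.1 ± 3.38 CPM). The latter pair is named beyond the naming rule, after its values were seen.

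Lists of genes held to be sex-biased in mouse liver were called mostly in their own direction. Of 34 known female-biased genes read, 28 were higher in females and 2 (Srd5a1 and Adh4) in males. Of 36 known male-biased genes, 28 were higher in males and 1 (Trim12a) in females, a call lost without female 6 or male 3. These lists were written with earlier results of such data known, and their counts are a description.

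Called genes tended to lie near each other. Another called gene began within 500000 bases in 150 of the 363 (41.3%), against 2391 of 10097 autosomal genes (23.7%), and one of these differed in the same direction in 118 of the 363 and in 1467 of the 10097. The largest run, on mm10 chromosome 4 from 60066469 to 62150863, held 21 called genes, 20 of them male-higher and 1, the pseudogene Mup-ps16, female-higher. A run of 7 on chromosome 19 held 6 female-higher Cyp2c genes and the male-higher Cyp2c67. The 4 called genes of the Cyp3a run on chromosome 5 (145436309 to 145805874) and the 4 of the Cyp2a and Cyp2b run on chromosome 7 (25897620 to 26315088) were all female-higher. Tandem copies share sequence, so neighbouring calls are not independent.

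The same contrast in the 6 GCV-treated wild-type mice, which share no library with it, had 310 autosomal calls, against 3.24% of all rows called. Of these, 201 were also VEH calls, which is 55.4% of the VEH calls and 64.8% of the GCV calls, all in the same direction. Of the 363 VEH calls, 350 had the same direction under GCV. The difference between the 2 contrasts was called for 1 autosomal gene, Fabp5 (454 at an unadjusted p under 0.05). Fabp5 was female-higher under VEH but at 216, 188 and 197 CPM in GCV-treated females and 368, 244 and 306 CPM in GCV-treated males, a difference of -2.26 ± 0.34 SE on the log2 scale (edgeR adjusted p = 0.0197). The adjusted p rose to 0.222 under the expression filter, to 0.0946 under DESeq2, and was between 4.7e-08 and 0.108 with each liver left out.

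**Figure D4:**
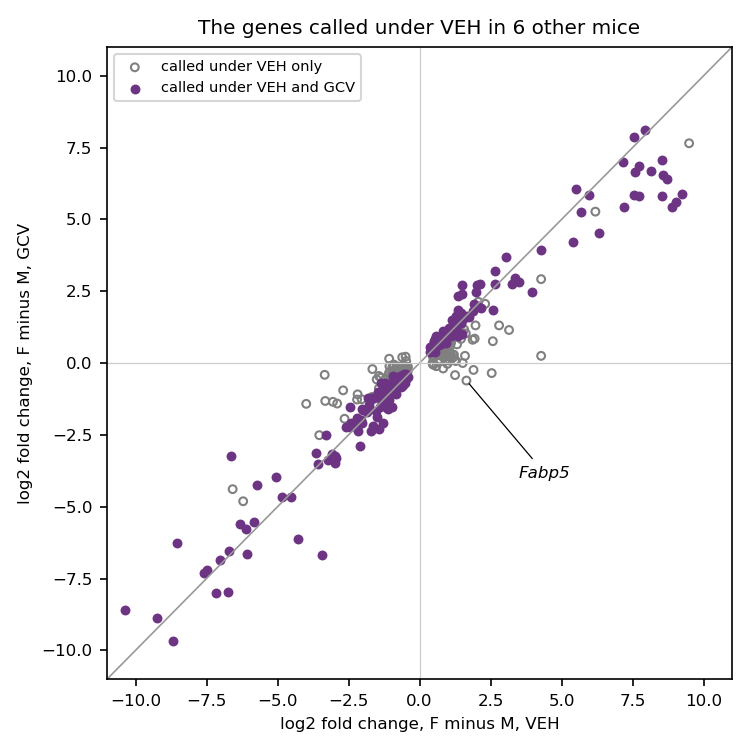
Log2 fold change (females minus males, edgeR) of the 363 autosomal genes called under VEH, on the x axis, and in the GCV-treated wild-type mice, on the y axis, with a line of equality. Filled points are the 201 genes called in both, and Fabp5 lies below zero on the y axis.

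In the older VEH-treated p16-3MR mice, fitted on their own table, 21 autosomal genes were called, and 26 of all 21755 rows (0.120%, either direction). Among the 358 VEH calls with a row there and over 3 counts in a sex, 15 were called, all in the same direction, and 286 had the same direction. The median absolute log2 difference of these genes was 1.11 in the young and 0.68 in the old mice, and the median SE was 0.20 and 0.69. The genes were chosen by their call in the young mice, so the lower old median cannot by itself be read as a weaker difference. Of 39 genes with a young difference of at least 4 and at least 5 CPM, 37 had the same direction. Saa2, whose VEH call in the young mice rests on male 1, did not, at -6.10 and 4.75. Without the old female labelled 28, the old value was 0.14. In the GCV-treated wild-type mice Saa2 differed by -5.78 (edgeR adjusted p = 0.0274). Sult2a1 differed by 13.83 in the old mice, where males had no count, Mup20 by -9.79, Cyp2d9 by -5.92 and Mup7 by -3.88, the last not called. The old male labelled 24 stood apart in male-biased genes, with Mup7 at 4.08 CPM against 753 and 1690 CPM in the other old males, and Hsd3b5 at 0 against 61.1 and 127 CPM. It was the lowest old male in 161 of the 197 male-higher genes and in 78 of the 161 female-higher genes. Without it, 18 of the 358 genes were called and 296 had the same direction, their median absolute log2 difference was 0.85, and Mup7 differed by -4.45, still not called. The old female labelled 27 stood apart in some of the same genes, with Mup1 at 129.8 CPM against 3.91 and 8.81 CPM in the other old females, and without it Mup7 differed by -5.41 and Mup1 by -4.75 instead of -1.85. Mup7 was between -5.41 and -2.77 with each old liver left out. The Mup20 call was lost without any 1 of the old females, and that of Cyp2d9 without any 1 of the old livers except male 24. Age, genotype and batch differ together between the tables and cannot be told apart, and no test between them was made. The labels also call the wild-type mice age-matched, although they give 6 months against 16 to 18 months as the start of treatment. Young and old here follow these start ages. The study's methods also give an age, later than the start ages, at which the p16-3MR livers were taken.

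**Figure D5:**
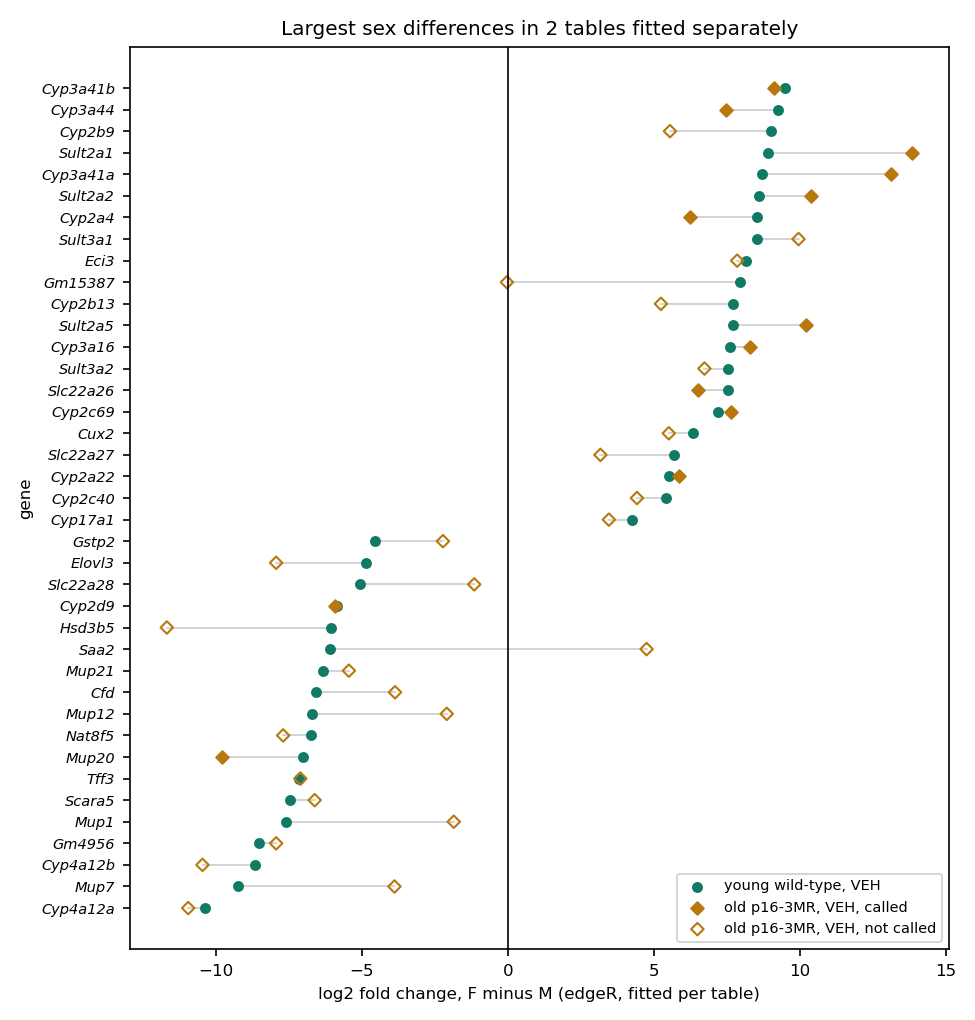
Log2 fold change (females minus males, edgeR) of the 39 genes with a difference of at least 4 and at least 5 CPM in young VEH-treated wild-type mice (green) and in old VEH-treated p16-3MR mice (orange diamonds, filled where called), each fitted on its own table. Saa2 and Gm15387 have opposite signs. The old sign of Gm15387 depends on single old livers. Saa2 stays positive in the old mice with each old liver left out, at 0.14 to 5.32, so only its size does. Gm15387 is at -0.03 in the old mice, and at 0.07 or 0.16 without the old female labelled 29 or the old male labelled 24. Saa2 is at 0.14 there without the old female labelled 28. Values against a group without counts depend on the prior count and are not bounds.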

How the data were processed

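Liver RNA of 24 mice, 3 per group, was sequenced with Smart-3SEQ, which reads the 3′ ends of transcripts. Per the submitters' processing notes and the study's methods, the authors trimmed reads with Trim Galore 0.6.10 and quantified transcripts with Salmon 1.10.3 (mm10), which were then summed to genes with tximport. The authors deposited these estimated counts as integers, without library-size scaling. Salmon can divide reads among near-identical paralogs, and 3′-end reads do not scale with transcript length.

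Labels of the wild-type table were matched to GENCODE M21 and RefSeq symbols on GRCm38. A label entered the text only where 1 symbol, on an autosome, gives it. The fit used the 12 wild-type livers with 1 mean per group in edgeR 4.0.16 (R 4.3.3), with TMM and the quasi-likelihood test, adjusted by Benjamini-Hochberg over all 12643 rows and called at 0.05. The p16-3MR table was fitted separately. The script was tested on simulated data. DESeq2 1.42.0 and limma 3.58.1 served as alternatives, beside DESeq2 size factors, library totals, edgeR's expression filter, a fit of the 6 VEH-treated livers, an adjusted p under 0.01 and the omission of single livers. The per-list counts without male 1 were added after the data were seen.

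The gene lists and comparisons were chosen with earlier results of these data known. Values in each liver are given for up to 12 called genes per direction with the largest log2 fold change, a mean of at least 5 CPM in the higher group and no overlap, for up to 4 called members per list and direction, and for named regulators. Ratios are of mean CPM. Against a group with 1 to 3 counts they are of pooled counts with an exact 95% counting interval, and against a group without counts they are bounds at a floor of 3 counts over the group. The 3 samples per group are stated to be biological replicates. Some genes are not reported here.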

Additional observations from a re-analysis of the deposited data

Results flagged for a closer look

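The sex difference of Fabp5 differed between treatments by the test of that difference itself, at -2.26 on the log2 scale (GCV minus VEH, edgeR adjusted p = 0.0197). Fabp5 was higher in all 3 VEH-treated females than in all 3 VEH-treated males, and lower in all 3 GCV-treated females than in all 3 GCV-treated males. Male 1, at 337 CPM, was the VEH-treated male nearest to the females, and without it the difference was -2.80. The adjusted p was above 0.05 when any GCV-treated female, VEH-treated female 6, VEH-treated male 3, or GCV-treated male 1 or 3 was left out.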

How the results depend on the processing

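With library totals in place of TMM, 1269 autosomal genes were called under VEH, 1155 higher in females and 114 higher in males, and the median log2 difference over all rows was 0.36. At an adjusted p under 0.01 the counts were 204, 81 and 123. DESeq2 called 420, limma-voom 457, DESeq2 size factors 365, the expression filter 350 and the 6 VEH-treated livers alone 305. With each liver left out, 239 to 542 genes were called, 91 to 244 higher in females and 140 to 298 higher in males, with the lowest total without male 3 (239) and the highest without male 1 (542). Leaving out male 2 or male 3 lowered the female-higher count to 91 and 96. Of 95 called genes named by the rule, 24 lost the call under at least 1 alternative, and none of 97 named genes changed direction in 1164 values. Females (4 to 6) and males (1 to 3) share no number, so the VEH contrast has no paired fit. For the difference between treatments, numbers recur within a sex, and same-numbered livers correlated at -0.026 to 0.158. A replicate block raised the calls from 1 to 69, and not every liver correlated best with its own number. That difference gave 0 calls under the expression filter and 0 to 15 with each liver left out (15 without VEH-treated male 1), and Fabp5 itself was between -2.80 and -2.03. GCV calls were 214 to 300 with each liver left out. In the old mice DESeq2 called 96 genes against 21, and leave-one-out gave 12 to 28, with 12 and 13 without males 26 and 25. The causes were not tested. Depth limits genes below the floor of 3 counts, 0.516 to 0.798 CPM in the 6 livers.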

Other observations

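Some genes that were not called varied between livers of 1 sex. Onecut1, a liver homeobox factor, was at 210 CPM in female 4 and 158 CPM in male 1 but between 24.6 and 41.4 CPM in the other 4 VEH-treated livers, and it was not called between the sexes (edgeR adjusted p = 0.827). Cish was high in 2 females and in male 1 and low in the others. Thrsp, a lipogenic gene, was at 687 CPM in male 1 against 148 and 150 CPM in the other males and 285 to 393 CPM in the females (edgeR adjusted p = 0.979). Cyp3a11 was at 109 CPM in male 1 and between 457 and 767 CPM in the other 5 livers. These genes were named after their values were seen.

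Of the 363 called genes, 352 are annotated as protein-coding. In the 3 males, 47 called genes of male 1 lay at least 1 on the log2 scale from the mean of the other males, against 22 and 16 for males 2 and 3, and 8 to 18 for the females. Over all 10097 autosomal genes the same count was 1107 for male 1, 753 and 708 for males 2 and 3, and 694 to 811 for the females.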
